A study of Homo sapiens with 12 samples.

Results

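The kallikrein serine proteases of the epidermis were followed by RNA sequencing in HaCaT, a spontaneously immortalised line of human keratinocytes. SPINK5, which encodes an inhibitor of some of them, was followed too. The 8 genes were taken by symbol from the deposited count table of 22545 genes: KLK5, KLK6, KLK7, KLK8, KLK10, KLK11, KLK13 and SPINK5. All 8 were in the table. KLK5, KLK6, KLK7, KLK8 and KLK10 had enough reads to be tested among 14207 genes, whereas KLK11, KLK13 and SPINK5 did not pass the filter on low counts.

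The 12 libraries fell into 4 groups of 3. The groups were M5 with lefamulin, M5 with retapamulin, M5 alone and untreated cells, all of them HaCaT with a wild-type genotype label. Lefamulin and retapamulin are pleuromutilin antibiotics with a shared tricyclic core and different side chains, and the series addresses pleuromutilins in psoriasis. The labels name the stimulus M5 without its composition, and they state neither doses and times of the drugs nor any vehicle for the groups without a drug. The extraction text describes mouse epidermis while the cell line label reads HaCaT. Nothing in the labels says whether the 3 libraries of a group came from separate cultures, so p-values measure the spread between libraries, which may be technical.

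Kallikreins are secreted serine proteases made as inactive precursors, and in the upper epidermis they cleave the corneodesmosomes that hold cornified cells together. KLK5 is a trypsin-like enzyme able to activate other kallikreins, and KLK7 is a chymotrypsin-like enzyme. SPINK5 encodes LEKTI, a multidomain Kazal-type inhibitor of some kallikreins, KLK5 and KLK7 among them. Its loss causes Netherton syndrome, in which the skin barrier sheds too early. KLK5 also cleaves the receptor PAR-2, encoded by F2RL1.

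The 7 kallikrein genes belong to the kallikrein cluster of chromosome 19, where KLK5, KLK6, KLK7 and KLK8 follow each other in that order and KLK10 lies between KLK9 and KLK11, while SPINK5 is on chromosome 5. The 250 bases before the annotated start of 4 of the genes are printed because KLK5 and KLK6 moved together and KLK10 moved the other way under M5, and because SPINK5 encodes the inhibitor. The sequences are those of RefSeq on GRCh38.p14, 5′ to 3′ on the strand of the gene, and the labels do not name the build behind the deposited counts. Capitals mark TATAA on either strand, so that overlapping matches read as 1 longer run.
KLK5 (chr19:50953039-50953288, minus strand): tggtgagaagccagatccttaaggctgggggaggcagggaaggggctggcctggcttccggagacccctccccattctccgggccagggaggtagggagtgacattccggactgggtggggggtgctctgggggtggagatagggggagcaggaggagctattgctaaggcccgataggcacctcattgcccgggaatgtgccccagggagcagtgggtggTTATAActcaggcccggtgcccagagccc
KLK6 (chr19:50969592-50969841, minus strand): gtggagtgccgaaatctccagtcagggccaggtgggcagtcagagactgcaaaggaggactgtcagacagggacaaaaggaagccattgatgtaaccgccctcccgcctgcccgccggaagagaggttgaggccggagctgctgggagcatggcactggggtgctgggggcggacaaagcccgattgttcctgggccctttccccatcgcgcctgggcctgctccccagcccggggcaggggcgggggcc
KLK10 (chr19:51019862-51020111, minus strand): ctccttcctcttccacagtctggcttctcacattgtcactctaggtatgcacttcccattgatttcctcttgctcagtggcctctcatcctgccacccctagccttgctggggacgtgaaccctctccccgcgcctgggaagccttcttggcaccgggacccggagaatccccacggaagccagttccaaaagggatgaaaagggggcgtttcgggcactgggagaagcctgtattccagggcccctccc
SPINK5 (chr5:148063730-148063979, plus strand): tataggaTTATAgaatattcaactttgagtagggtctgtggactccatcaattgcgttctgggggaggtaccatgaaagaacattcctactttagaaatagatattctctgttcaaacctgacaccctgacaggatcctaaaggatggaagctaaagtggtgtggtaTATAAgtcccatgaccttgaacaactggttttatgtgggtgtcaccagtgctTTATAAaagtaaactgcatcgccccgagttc
The KLK5 window held TATAA with its first base 28 bases before the start, and the overlapping reverse match at 29. SPINK5 held matches at 243, 83, 31 and 30 bases before its start, and KLK6 and KLK10 held none. TATAA, searched after these sequences had been read, occurred in 18.9% of all 35116 RefSeq windows of this length. GC content was 64.8% for KLK5, 66.8% for KLK6, 59.2% for KLK10 and 41.6% for SPINK5, beside a median of 58.0% over all windows. The KLK10 window printed is that of its first listed start. A further listed start of KLK10 (window chr19:51019710-51019959) had 62.8% GC and also held no TATAA. The table matched 7 of the 8 genes in 12 windows. The motifs TGANTCA for AP-1, TTCNNNGAA for STAT and a motif for NF-kB, searched on both strands, occurred in 6.57%, 6.57% and 5.07% of all windows and in 0 of the 12. These letters were not in these windows, which is all that such a search reports.

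Library totals ran from 35110519 to 37520999 counts, and between 17009 and 17955 genes had a count. Every pair of libraries within a group differed by more than sampling noise, with a chi-square per degree of freedom of 2.69 to 8.62. Keratinocyte markers (KRT5, KRT14, TP63, ITGA6, COL17A1) were all present, with a summed level of 325 to 334 FPKM under M5 with lefamulin, 325 to 328 under M5 with retapamulin, 426 to 445 under M5 and 875 to 903 in untreated cells. KRT5 made up most of that sum, at 199, 179, 288 and 800.02 FPKM in the same order of groups, and the other genes of the list did not all follow it. TP63 averaged 15.8, 11.3, 32.7 and 16.2 FPKM, ITGA6 75.6, 90.7, 85.1 and 43.1 FPKM, and COL17A1 38.4, 44.3, 25.7 and 19.1 FPKM. KRT14, a defining basal keratin, was low at 0.796, 0.730, 3.43 and 8.52 CPM in the same order of groups. The keratins KRT8, KRT18 and KRT19 of simple epithelia summed to 5465 to 5658, 6918 to 7103, 3144 to 3299 and 3170 to 3367 FPKM. Among markers of other cells, endothelial ones (3 of 4 in the table) summed to 27.8 to 28.8, 22.3 to 25.4, 28.3 to 29.9 and 3.81 to 4.40 FPKM, nearly all from CDH5, with PECAM1 at or near 0. Leukocyte markers (5 of 6) summed to 22.7 to 24.5, 40.8 to 45.3, 17.5 to 18.6 and 7.79 to 8.99 FPKM, nearly all from CD68, with PTPRC at or near 0. The fibroblast list (6 of 6) stayed at or under 2.80 FPKM and the melanocyte list (4 of 5) at or under 1.19 FPKM. Their part in the results that follow was not tested, and in bulk RNA fewer cells making a transcript and less of it per cell cannot be told apart.

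Levels within a gene are given as CPM, counts brought to a fixed library size, with trimmed mean of M values (TMM) scaling. Changes are log2 fold changes from edgeR's quasi-likelihood test with Benjamini-Hochberg adjustment over all 14207 genes, and a gene was called at an adjusted p under 0.05. Scaling matters here. With TMM the median log2 fold change of all genes was -0.02 for M5 over untreated, -0.00 for lefamulin over M5, -0.05 for retapamulin over M5 and 0.01 for lefamulin over retapamulin, the drugs always on top of M5. On library totals alone these medians were -0.14, -0.05, -0.19 and 0.10. Of the genes called between the drugs, 47.0% were higher under lefamulin with TMM, 36.8% with relative log expression factors and 72.8% on library totals. Of those called between M5 and untreated cells, 51.3% were higher under M5 with TMM and 31.5% on library totals.

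KLK5 had 65.7, 62.8 and 67.3 CPM under M5 with lefamulin, 85.3, 84.1 and 86.4 under M5 with retapamulin, 72.1, 73.8 and 69.0 under M5, and 118, 127 and 126 in untreated cells. All 9 M5-treated libraries lay below all 3 untreated ones, and the 4 groups did not overlap. KLK6, a trypsin-like protease that is also made in the nervous system, had 4.81, 4.46 and 4.64 CPM under M5 with lefamulin, 6.45, 6.28 and 6.56 under M5 with retapamulin, 5.93, 6.62 and 6.17 under M5, and 11.5, 12.4 and 11.2 in untreated cells. Untreated libraries again stood above the rest, lefamulin libraries were lowest, and the retapamulin and M5 libraries overlapped.

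KLK7 had 2.43, 1.78 and 2.42 CPM under M5 with lefamulin, 0.874, 1.62 and 1.75 under M5 with retapamulin, 1.18, 1.29 and 1.29 under M5, and 1.64, 1.97 and 1.60 in untreated cells. These values rest on 29 to 88 reads a library, and retapamulin replicate 1, at 29 reads, was the lowest of the 12. KLK8, a trypsin-like protease known as neuropsin, had 21.2, 21.1 and 21.4 CPM under M5 with lefamulin, 16.5, 18.2 and 19.5 under M5 with retapamulin, 12.3, 11.4 and 12.8 under M5, and 16.8, 17.2 and 18.2 in untreated cells. Its order was lefamulin, then the overlapping retapamulin and untreated groups, then M5.

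KLK10, a kallikrein first described as a gene lost in breast cancer cells, had 145, 138 and 139 CPM under M5 with lefamulin, 219, 221 and 223 under M5 with retapamulin, 68.8, 70.0 and 68.0 under M5, and 39.7, 43.2 and 39.1 in untreated cells. The 4 groups did not overlap, and their order ran opposite to that of KLK5 between the M5 and untreated groups.

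**Figure D1:**
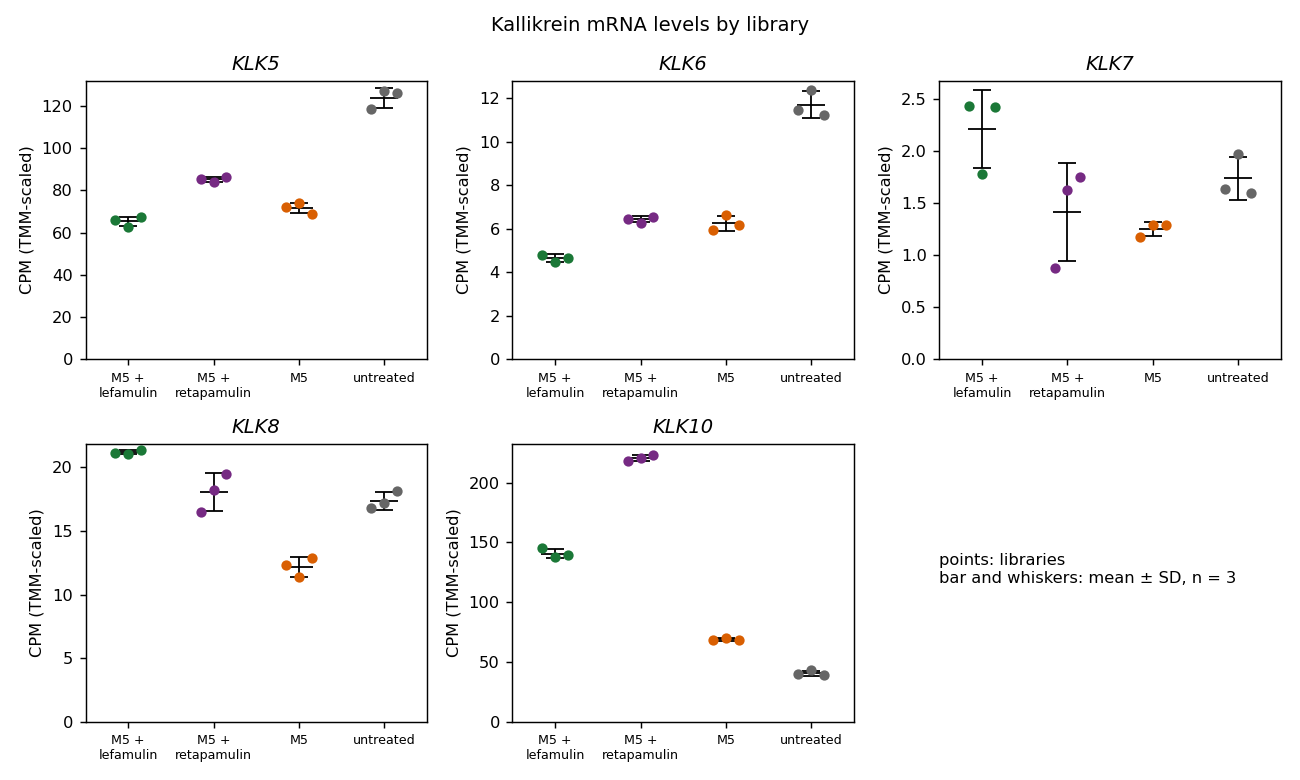
Levels of the 5 tested kallikreins in CPM (linear axes starting at 0) for each library, with points for single libraries and a bar with whiskers for the mean ± SD of 3. KLK5 and KLK6 are highest in untreated cells, whereas KLK10 is lowest there, averaging 40.7 CPM against 221 under M5 with retapamulin.

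Under M5 alone, KLK5, KLK6 and KLK8 fell and KLK10 rose relative to untreated cells. KLK5 averaged 71.7 ± 2.46 CPM in M5 cells and 124 ± 4.72 CPM in untreated cells (SD, n = 3 each), a log2 fold change of -0.79 (SE 0.04, edgeR adjusted p = 1.9e-14). KLK6 fell by 0.91 on the log2 scale (SE 0.10, edgeR adjusted p = 3.2e-08), with 6.24 ± 0.351 CPM in M5 cells and 11.7 ± 0.620 CPM in untreated cells. For KLK8 the averages were 12.2 ± 0.758 CPM in M5 cells and 17.4 ± 0.713 CPM in untreated cells, a log2 fold change of -0.51 (SE 0.07, edgeR adjusted p = 2.7e-06). KLK10 rose by 0.76 (SE 0.04, edgeR adjusted p = 7.5e-14), averaging 68.9 ± 1.01 CPM in M5 cells and 40.7 ± 2.20 CPM in untreated cells.

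KLK7 was not called, at 1.25 ± 0.0654 CPM in M5 cells and 1.74 ± 0.205 CPM in untreated cells. Its log2 fold change was -0.47 (95% interval -0.99 to 0.05, edgeR adjusted p = 0.12), although the 2 groups did not overlap. On library totals KLK7 was called (adjusted p = 0.048), as it was by limma on the deposited FPKM. Thus 1 of the 5 tested genes was called higher and 3 lower, where 28.3% and 26.9% of all tested genes were called in those directions and 55.2% in either. All 5 showed no overlap between the groups, as did 59.2% of all tested genes. Of all tested genes, 7.18% had a lower log2 fold change than KLK6, 8.81% than KLK5 and 92.6% than KLK10.

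With lefamulin added to M5, KLK10, KLK8 and KLK7 rose relative to M5 alone, and KLK5 and KLK6 fell further. KLK10 averaged 141 ± 3.90 CPM with lefamulin and 68.9 ± 1.01 CPM with M5 alone, a log2 fold change of 1.03 (SE 0.04, edgeR adjusted p = 3.2e-17). KLK8 rose by 0.80 (SE 0.07, edgeR adjusted p = 9.3e-10), to 21.2 ± 0.144 CPM with lefamulin, against 12.2 ± 0.758 CPM with M5 alone. KLK7 rose by 0.82 (SE 0.25, edgeR adjusted p = 0.0058), averaging 2.21 ± 0.374 CPM with lefamulin and 1.25 ± 0.0654 CPM with M5 alone. The falls were small for KLK5, which averaged 65.3 ± 2.29 CPM with lefamulin (log2 fold change -0.13, SE 0.04, edgeR adjusted p = 0.0067), and larger for KLK6 at 4.64 ± 0.175 CPM (-0.43, SE 0.11, edgeR adjusted p = 0.0011). All 5 tested genes were called, 3 higher and 2 lower, where 67.9% of all tested genes were called in either direction, 33.6% higher and 34.3% lower. The groups did not overlap for any of the 5, nor for 71.2% of all tested genes.

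With retapamulin added to M5, KLK10, KLK8 and KLK5 rose, and KLK6 and KLK7 were not called. KLK10 averaged 221 ± 2.40 CPM with retapamulin and 68.9 ± 1.01 CPM with M5 alone, which is 3.21-fold higher (log2 1.68, SE 0.04, edgeR adjusted p = 1.1e-21). Of all tested genes, 95.5% had a lower log2 fold change. KLK8 averaged 18.1 ± 1.49 CPM with retapamulin and 12.2 ± 0.758 CPM with M5 alone (0.57, SE 0.08, edgeR adjusted p = 3.0e-07). KLK5 averaged 85.3 ± 1.19 CPM with retapamulin and 71.7 ± 2.46 CPM with M5 alone (0.25, SE 0.04, edgeR adjusted p = 7.6e-06). For KLK6 the log2 fold change was 0.04 (95% interval -0.17 to 0.26, edgeR adjusted p = 0.73), and on library totals it was -0.09. KLK7, at 1.41 ± 0.473 CPM with retapamulin, gave 0.18 (95% interval -0.36 to 0.72, edgeR adjusted p = 0.55). The count was 3 higher and 0 lower of 5, where 72.1% of all tested genes were called, 34.1% higher and 38% lower. The groups did not overlap for 3 of the 5, and for 73.8% of all tested genes. All 5 log2 fold changes were above 0 in this fit, so 0 lower was fixed at any p threshold. The count was also 0 with DESeq2. In the edgeR fit without a filter it was 1, SPINK5 (adjusted p = 0.016).

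**Figure D2:**
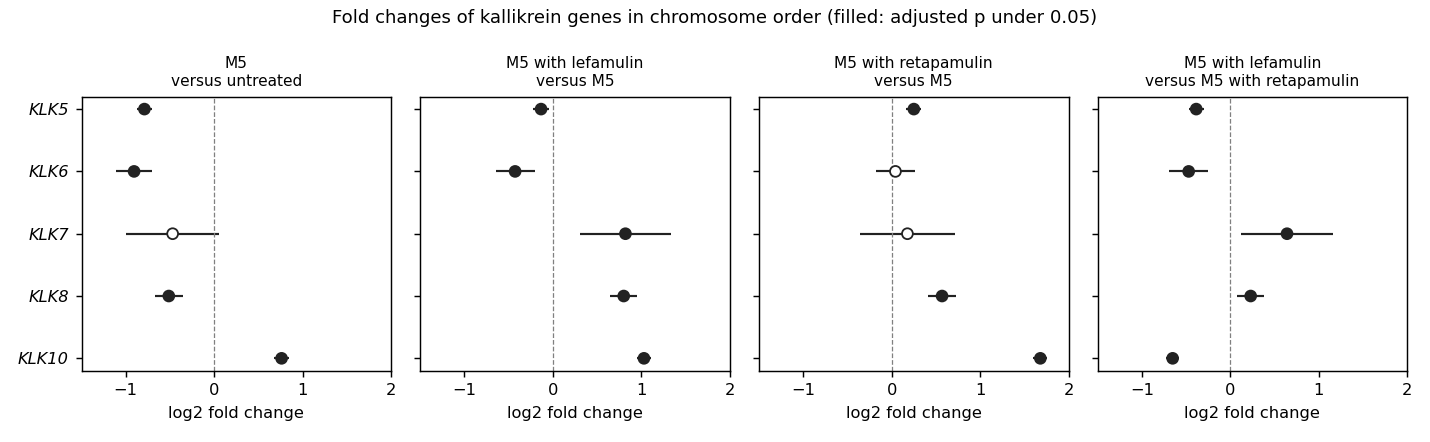
Log2 fold changes of the 5 tested kallikreins in chromosome order for 4 comparisons, with 95% intervals as horizontal lines; filled points passed an adjusted p of 0.05. KLK10 is the one gene to the right of 0 in the first 3 comparisons with a filled point in each, and KLK5 and KLK6 lie left of 0 in the comparison of the drugs.

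The labels give no dose for either drug, so whether lefamulin and retapamulin were given at matched doses is unknown. Between the drugs on top of M5, KLK10, KLK5 and KLK6 were lower with lefamulin than with retapamulin, and KLK8 and KLK7 were higher. KLK10 differed by -0.65 on the log2 scale (95% interval -0.73 to -0.57, edgeR adjusted p = 1.7e-12) and KLK5 by -0.39 (-0.47 to -0.30, edgeR adjusted p = 1.0e-07). KLK6 differed by -0.47 (-0.69 to -0.25, edgeR adjusted p = 0.0012). KLK8 differed by 0.23 (0.08 to 0.38, edgeR adjusted p = 0.014) and KLK7 by 0.64 (0.12 to 1.16, edgeR adjusted p = 0.044). Both positive calls were lost without lefamulin replicate 1, retapamulin replicate 1 or retapamulin replicate 2, with adjusted p values of 0.0583, 0.0874 and 0.0587 for KLK8 and 0.158, 0.222 and 0.0562 for KLK7. The KLK7 call was also lost without lefamulin replicate 3 (adjusted p = 0.128), with relative log expression factors (0.0558), with DESeq2 (0.0525) and without a filter (0.0502). Of all tested genes 40% were called between the drugs, 18.8% higher and 21.2% lower with lefamulin, and 2.60% had a lower log2 fold change than KLK10. The drug groups did not overlap for any of the 5 kallikreins, nor for 52% of all tested genes.

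Set against untreated cells, which also serve as the comparison for M5 alone, KLK10 was higher with either drug on top of M5. Its log2 fold change was 1.79 with lefamulin (SE 0.04, edgeR adjusted p = 4.8e-22) and 2.44 with retapamulin (SE 0.04, edgeR adjusted p = 7.3e-25). KLK5 was lower, by -0.92 with lefamulin (edgeR adjusted p = 3.4e-16) and -0.54 with retapamulin (edgeR adjusted p = 9.0e-12). KLK6 was lower too, by -1.33 with lefamulin (edgeR adjusted p = 2.0e-11) and -0.86 with retapamulin (edgeR adjusted p = 2.8e-08). KLK8 was 0.29 higher with lefamulin (edgeR adjusted p = 9.5e-04), a call that was lost on library totals (0.12, adjusted p = 0.11). With retapamulin KLK8 gave 0.06 and was not called (edgeR adjusted p = 0.48), and on library totals it turned to -0.20 (adjusted p = 0.012). KLK7 was not called with lefamulin (0.35, edgeR adjusted p = 0.20) or with retapamulin (-0.29, edgeR adjusted p = 0.29). The counts were 2 higher and 2 lower of 5 with lefamulin, where 74% of all tested genes were called, 36.9% higher and 37.1% lower. With retapamulin they were 1 higher and 2 lower, where 78.5% were called, 37.6% higher and 40.9% lower. The groups did not overlap for 4 of the 5 with lefamulin and 3 with retapamulin, and for 76.1% and 79.2% of all tested genes.

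The make-up of kallikrein mRNA was compared on the deposited FPKM, which divide by gene length. The lengths used are not stated, and shares and ratios between genes depend on them. The 7 kallikreins summed to 106 ± 2.52 FPKM under M5 with lefamulin, 131 ± 1.86 under M5 with retapamulin, 84.3 ± 2.22 under M5 and 129.7 ± 3.67 in untreated cells. These sums carry no TMM scaling, so their order between groups depends on that choice. KLK5 with retapamulin against untreated cells was 51.7 against 89.6 FPKM, and 85.3 against 124 CPM. KLK5 made up 39.8%, 39.5%, 56.6% and 69.1% of that sum in the same order of groups. KLK10 made up 37.8%, 45.1%, 24.0% and 10.01%, and KLK8 18.7%, 12.1%, 13.9% and 14.01%. KLK6 contributed between 2.66% and 6.14% and KLK7 under 1% in every group. The KLK10 to KLK5 ratio of FPKM was 0.974, 0.967 and 0.913 under M5 with lefamulin, 1.13, 1.16 and 1.14 under M5 with retapamulin, 0.421, 0.418 and 0.435 under M5, and 0.148, 0.150 and 0.137 in untreated cells. The ratio did not overlap between any groups, and KLK10 FPKM exceeded KLK5 FPKM in the 3 retapamulin libraries and in no other library. By summed counts, not divided by length, KLK10 exceeded KLK5 with lefamulin too (15005 against 6964). The sums were 22408 and 8647 with retapamulin, 7654 and 7958 with M5, and 4782 and 14574 in untreated cells. Such ratios within a library do not depend on how libraries were scaled.

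**Figure D3:**
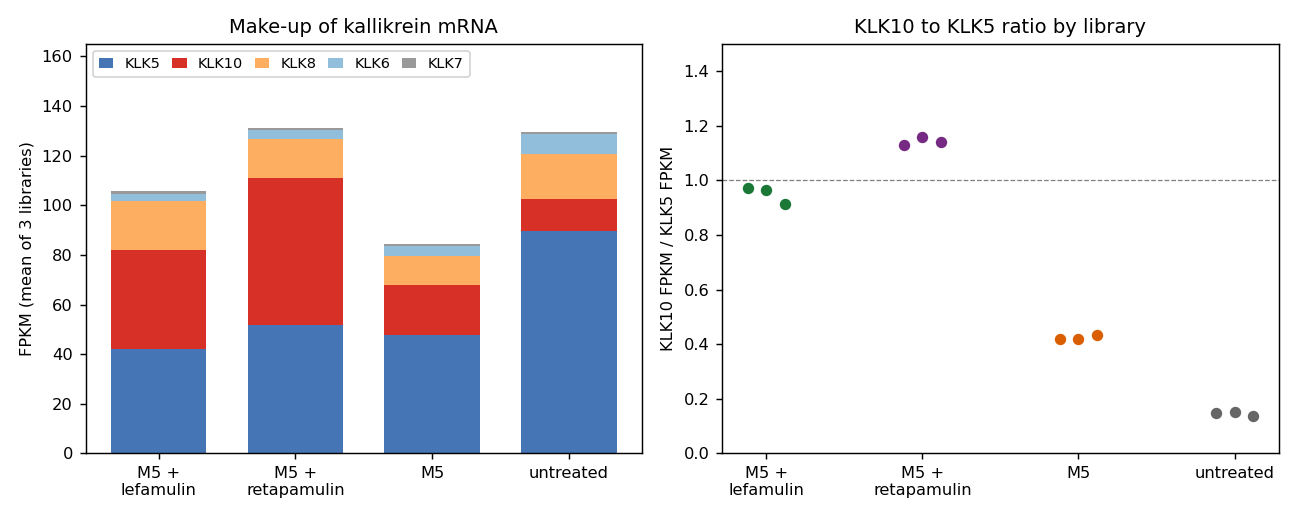
Left, stacked mean FPKM of the 5 tested kallikreins in each group. Right, the ratio of KLK10 to KLK5 FPKM in each library, with a dashed line at equal FPKM. Untreated libraries lie between 0.137 and 0.150 and retapamulin libraries between 1.13 and 1.16.

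Across the 12 libraries, the log2 CPM of KLK5 and KLK6 ran together with a Pearson correlation of 0.97, and KLK10 ran against both, at -0.57 with KLK5 and -0.71 with KLK6. KLK7 and KLK8 correlated at 0.69, and KLK8 with KLK5 at 0.03. These are descriptions over 12 libraries of 4 groups, which share the group means. The genes most like each kallikrein over the same libraries were CAMK2G and VGLL1 for KLK5 (both 0.979), CTNNAL1 for KLK6 (0.985), ZNF846 for KLK7 (0.951) and ADIRF for KLK8 (0.987). For KLK10 they were TRIM8, SLC39A7 and ITGA1, each at 0.998. ITGA1, an integrin subunit that binds collagen, averaged 23.5 CPM under M5 with lefamulin, 42.6 under M5 with retapamulin, 10.4 under M5 and 5.64 in untreated cells.

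SPINK5, the inhibitor gene, was read 0, 1 and 0 times under M5 with lefamulin, 1, 0 and 1 times under M5 with retapamulin, 6, 5 and 6 times under M5, and 14, 7 and 13 times in untreated cells. Drug-treated libraries were all at 0 or 1 read, below every M5 library, and every M5 library lay below every untreated one. Scaled by library size, the M5 to untreated ratio of summed counts (17 against 34) was 0.530, with a 95% counting interval of 0.278 to 0.975. The sum of 1 read with lefamulin, against 17 with M5, was 16.3-fold lower (interval 2.56 to 682), and that of 2 reads with retapamulin was 7.76-fold lower (1.84 to 69.2). These intervals cover counting error only. In each of the 3 comparisons the exact 2-sided permutation test gave p = 0.1, the smallest that 3 against 3 libraries allow. In the edgeR fit without a filter, SPINK5 was called lower with lefamulin (adjusted p = 0.0037) and with retapamulin (adjusted p = 0.016) than with M5, and not between M5 and untreated cells (adjusted p = 0.35). Between the drugs, 1 read with lefamulin and 2 with retapamulin showed no detectable difference at this depth.

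KLK11, another trypsin-like kallikrein, was read 17, 5 and 3 times under M5 with lefamulin, 1, 3 and 9 times under M5 with retapamulin, 3, 6 and 4 times under M5, and 6, 7 and 7 times in untreated cells. The groups overlapped, apart from lefamulin replicate 1, which held 17 of its group's 25 reads. The ratio of 25 reads with lefamulin to 13 with M5 was 2.00 (counting interval 0.986 to 4.26, exact permutation p = 0.6), and without that library it was 0.969. KLK13 was read 1, 1 and 0 times with lefamulin, 0 times in each retapamulin library, 1, 0 and 0 times with M5, and 2, 2 and 3 times in untreated cells. All 3 untreated libraries lay above the other 9. With 0 reads in the retapamulin group against 7 in the untreated group, the level was at least 2.01-fold lower against a floor of 3 counts over the group, and the 95% counting interval of the ratio reaches down to 1.24-fold lower.

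**Figure D4:**
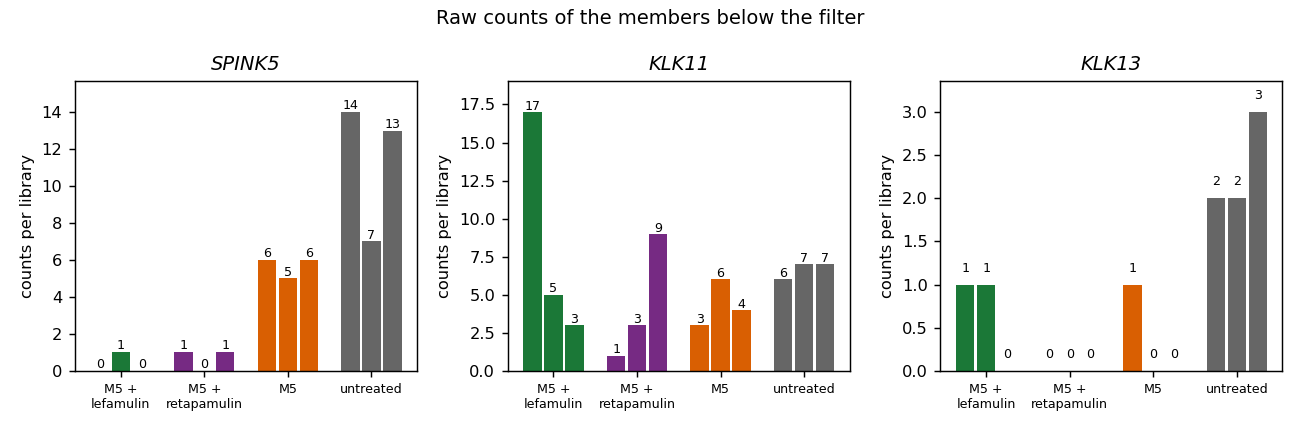
Raw counts per library of SPINK5, KLK11 and KLK13, the 3 genes under the filter, on linear axes. SPINK5 has 0 or 1 count in each of the 6 drug-treated libraries and 7 to 14 counts in untreated ones.

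Of 8 other kallikrein genes listed for the cluster, KLK1, KLK4, KLK9 and KLK14 were in the table. KLK2, KLK3, KLK12 and KLK15 were not in it under those symbols. KLK9 and KLK14 were tested, and neither was called in any of the 6 comparisons. Both stayed under 1 FPKM on average in every group. A RefSeq transcript, LOC105372442, overlaps both KLK5 and KLK6 and was looked at after the data were seen. It had 0, 1 and 0 counts with lefamulin, 4, 3 and 1 with retapamulin, 3, 5 and 2 with M5, and 17, 13 and 1 in untreated cells. The strand setting of the counting is not stated, so reads from the shared stretches cannot be told apart.

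Membrane-bound serine proteases and their Kunitz inhibitors form the neighbouring protease cascade of the epidermis, and 6 of 7 listed genes were tested. All 6 are given, which goes beyond the naming rule and was decided after their values were seen. Under M5 against untreated cells 2 were called higher and 3 lower, with a median log2 fold change of -0.14, where 28.3% and 26.9% of all tested genes were called. Both drugs gave 5 higher and 0 lower against M5, with medians of 0.43 for lefamulin and 0.67 for retapamulin, beside all-gene medians of -0.00 and -0.05. Of all tested genes 33.6% were higher and 34.3% lower with lefamulin, and 34.1% and 38% with retapamulin. PRSS8, which encodes prostasin, a membrane-anchored protease, averaged 130 ± 1.85 CPM under M5 with lefamulin, 153 ± 4.79 under M5 with retapamulin, 32.0 ± 2.00 under M5 and 39.9 ± 0.990 in untreated cells. It fell under M5 (log2 -0.32) and rose by 2.02 with lefamulin and 2.25 with retapamulin (SE 0.04 each, edgeR adjusted p = 6.2e-22 and 4.2e-23). TMPRSS13, a transmembrane protease, averaged 15.4 ± 0.812, 23.5 ± 1.85, 2.03 ± 0.677 and 3.36 ± 0.616 CPM in the same order. Its log2 fold change was -0.72 for M5 over untreated, 2.92 for lefamulin over M5 and 3.53 for retapamulin over M5 (edgeR adjusted p = 0.0010, 1.3e-14 and 1.6e-16).

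ST14, which encodes matriptase, an activator of prostasin, averaged 422 CPM with lefamulin, 411 with retapamulin, 339 with M5 and 293 in untreated cells. It rose by 0.21 under M5, and by 0.32 with lefamulin and 0.28 with retapamulin over M5. SPINT1, whose product HAI-1 inhibits matriptase, averaged 303, 318, 245 and 136 CPM in the same order, rising by 0.85 under M5, 0.31 with lefamulin and 0.38 with retapamulin. SPINT2, encoding the related HAI-2, rose by 0.54 with lefamulin and 0.56 with retapamulin. Between M5 and untreated cells SPINT2 gave 0.03 and was not called with TMM, and -0.09 on library totals. TMPRSS11E, a further transmembrane protease at 1.53 CPM or less, fell by 1.52 under M5 and was called with neither drug over M5. With retapamulin over M5 it was called higher when retapamulin replicate 1 was left out (1.06, edgeR adjusted p = 0.014). Between the drugs PRSS8 (-0.23), TMPRSS13 (-0.61) and TMPRSS11E (-1.02) were lower with lefamulin. That call of TMPRSS11E was lost on library totals, on FPKM, and on leaving out lefamulin replicate 1 or 2 or retapamulin replicate 2 or 3 (adjusted p of 0.0746, 0.133, 0.181 and 0.0724). ST14, SPINT1 and SPINT2 gave 0.04, -0.07 and -0.02 there and were not called, and SPINT1 and SPINT2 were above 0 on library totals. ST14 was called higher with lefamulin on library totals (0.13, adjusted p = 0.0028) and on FPKM. SPINT1 was called lower with relative log expression factors (-0.10, adjusted p = 0.0094), with DESeq2 (adjusted p = 0.0020), with the 2 drug groups alone in the fit (adjusted p = 0.027), and without lefamulin replicate 1 or retapamulin replicate 2 (adjusted p = 0.0068 and 0.021).

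Of 5 other inhibitors listed as acting on epidermal kallikreins, SERPINB6 was tested, at 120 CPM with lefamulin, 125 with retapamulin, 130 with M5 and 129 in untreated cells. It fell by 0.11 with lefamulin over M5 (edgeR adjusted p = 0.0077) and was not called with retapamulin over M5 (-0.05) or with M5 over untreated (0.0035). On library totals SERPINB6 was called lower in both (-0.19 and -0.11, adjusted p = 3.5e-05 and 0.0055). SPINK6 and A2ML1 stayed under the filter, with at most 5 and 19 counts in a group. SPINK1, a Kazal-type inhibitor best known from the pancreas, was read 12, 25 and 18 times under M5 with lefamulin, 77, 71 and 75 times under M5 with retapamulin, 0, 0 and 1 times under M5, and 1, 0 and 0 times in untreated cells. The ratio of summed counts to M5 was 57.3 with lefamulin (counting interval 9.86 to 2303) and 244 with retapamulin (43.4 to 9693), each resting on 1 read with M5. Between the drugs SPINK1 was lower with lefamulin by -2.08 on the log2 scale (SE 0.35, edgeR adjusted p = 3.6e-05). SPINK1 passed the filter on low counts through the drug-treated libraries, where it was highest, so this p-value is given as description only.

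**Figure D5:**
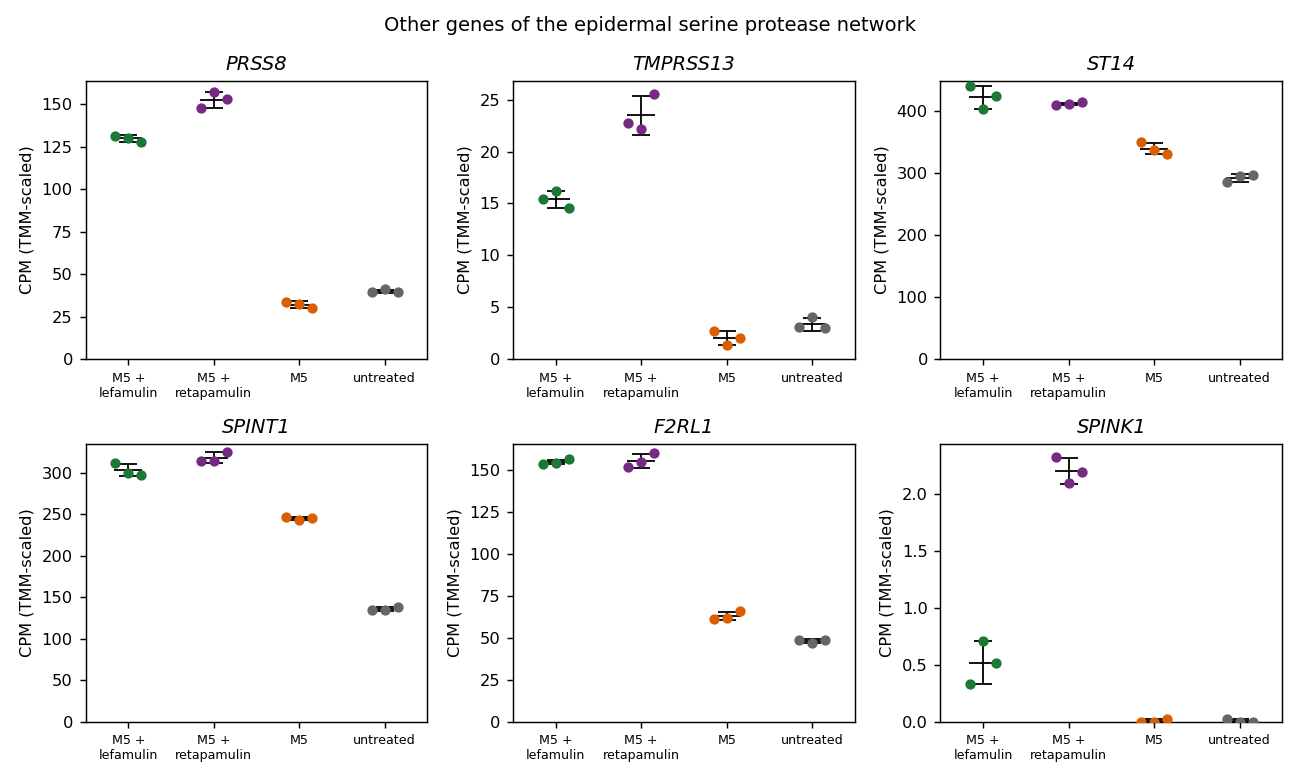
CPM per library of PRSS8, TMPRSS13, ST14, SPINT1, F2RL1 and SPINK1 on linear axes from 0, with points for libraries and bars with whiskers for the mean ± SD of 3. For all 6 genes, both drug groups lie above M5 alone and untreated cells.

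Among proteins known as kallikrein targets, 3 of 4 were tested. F2RL1 averaged 155 ± 1.47 CPM with lefamulin, 155 ± 4.26 with retapamulin, 63.0 ± 2.46 with M5 and 48.2 ± 1.28 in untreated cells. It rose by 0.39 under M5 and by 1.30 with either drug over M5 (SE 0.04 each, edgeR adjusted p = 2.6e-19 with lefamulin and 1.6e-19 with retapamulin). Between the drugs it gave -0.01 (95% interval -0.08 to 0.07) with TMM and 0.08 on library totals. IL1B, a cytokine precursor, averaged 155 ± 7.82 CPM with lefamulin, 78.7 ± 3.42 with retapamulin, 464 ± 10.6 with M5 and 27.6 ± 2.27 in untreated cells. It rose by 4.07 under M5 and fell by 1.58 with lefamulin and by 2.56 with retapamulin over M5 (edgeR adjusted p = 6.95e-20 and 9.4e-24). FLG, the filaggrin gene, was low, at 0.376 CPM with lefamulin, 0.405 with retapamulin, 0.586 with M5 and 3.48 in untreated cells. It fell by 2.56 under M5 (edgeR adjusted p = 2.6e-08) and was not called with either drug over M5. With lefamulin it was called lower without lefamulin replicate 3 (-0.92, adjusted p = 0.041). The corneodesmosome genes CDSN, DSG1 and DSC1 all lay under the filter. CDSN, which encodes corneodesmosin, was read 10, 11 and 16 times with lefamulin, 9, 10 and 7 times with retapamulin, 8, 3 and 3 times with M5, and 0, 3 and 7 times in untreated cells.

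Of 8 listed genes of the upper epidermal layers, 5 were in the table and 4 were tested, and their levels differed widely. KRT10, a keratin of suprabasal cells, averaged 42.1 CPM with lefamulin, 47.4 with retapamulin, 40.7 with M5 and 55.1 in untreated cells. It fell by 0.44 under M5 (edgeR adjusted p = 5.1e-08) and rose by 0.22 with retapamulin over M5 (edgeR adjusted p = 4.3e-04), a call that was lost on library totals (0.08, adjusted p = 0.16). IVL, the involucrin gene, fell by 4.30 under M5 (SE 0.31, edgeR adjusted p = 1.2e-11), with 15, 16 and 5 counts in M5 libraries and 268, 242 and 247 in untreated ones. SBSN, which encodes suprabasin, was read 7, 6 and 7 times with lefamulin, 71, 43 and 49 times with retapamulin, 6, 7 and 12 times with M5, and 0, 1 and 1 times in untreated cells. It was called higher under M5 (edgeR adjusted p = 4.1e-04) and rose by 2.82 with retapamulin over M5 (SE 0.39, edgeR adjusted p = 5.8e-07). SBSN passed the filter on low counts through the retapamulin libraries, where it was highest, so its p-values are given as description only. Its call under M5 was lost by limma on log2(FPKM + 1) (0.14, adjusted p = 0.096). Under M5 1 of the 4, SBSN, was called higher and 2 lower, where 28.3% and 26.9% of all tested genes were. With lefamulin over M5 0 were higher and 1, TGM1, lower, where 33.6% and 34.3% of all tested genes were. With retapamulin over M5 2, KRT10 and SBSN, were higher and 0 lower, where 34.1% and 38% of all tested genes were. In these counts too, the calls of SBSN are description only.

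All 5 basal genes were tested and are given, which goes beyond the naming rule. Under M5 against untreated cells 3 were called higher, TP63 by 1.13, ITGA6 by 1.10 and COL17A1 by 0.54, and 2 lower, KRT5 by -1.36 and KRT14 by -1.31. With lefamulin over M5 COL17A1 was called higher (0.63), and KRT14 (-2.10), TP63 (-1.001), KRT5 (-0.49) and ITGA6 (-0.12) were called lower. With retapamulin over M5 COL17A1 (0.92) and ITGA6 (0.23) were called higher, and KRT14 (-2.23), TP63 (-1.40) and KRT5 (-0.55) lower. The ITGA6 call with retapamulin was lost by limma on the deposited FPKM (0.09, adjusted p = 0.10 on log2(FPKM + 1)). The shares of all tested genes called are those given for the upper-layer genes.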

How the data were processed

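RNA of 12 HaCaT libraries was sequenced. The deposited table holds raw read counts per gene and FPKM made by the authors, and HISAT2 and HTSeq are named in the submitters' processing notes, with no version or annotation given in the sources used here. Counts were tested with edgeR 4.0.16 in R 4.3.3 (quasi-likelihood, TMM, filterByExpr with a minimum count of 10, all 4 groups in 1 fit, Benjamini-Hochberg over 14207 genes). The FPKM deposited by the authors were used to set genes beside each other, with limma 3.58.1 on log2(FPKM + 1) and log2(FPKM + 0.1), and DESeq2 1.42.0, as alternatives. Fold changes on such a log2 scale understate those of low genes. The 3 genes under the filter were compared by summed counts with exact 95% counting intervals and exact permutation tests.

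The members and all gene lists were chosen with earlier results of these data known. Every member is named, and from each list at most 2 called genes that rose most and 2 that fell most per comparison. A gene so named is followed through the other comparisons. Genes most like a member are those with the highest Pearson correlation of log2 CPM (prior count 2). RefSeq promoters were matched by symbol. Replicate numbers were not used to pair the libraries, and correlations of same-numbered deviations ran from -0.144 to 0.184. Differently numbered libraries were not compared, so these values cannot tell whether the libraries were paired. Other scalings, filters and fits, and leaving out each library, were tried.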

Additional observations from a re-analysis of the deposited data

How the results depend on the processing

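Calls of KLK5, KLK6 and KLK10 kept their direction and side of the threshold in M5 over untreated, lefamulin over M5 and lefamulin over retapamulin under every alternative run. The counts that moved concerned the low or nearly unchanged genes. In the edgeR fit without a filter, SPINK5 was called lower over M5 with retapamulin (adjusted p = 0.016) and with lefamulin (adjusted p = 0.0037). It was also called lower over untreated cells with lefamulin (adjusted p = 3.95e-05) and with retapamulin (adjusted p = 2.6e-04). For M5 over untreated, KLK7 was called lower as well on library totals and by limma on both FPKM scales. Between the drugs, 1 gene rather than 2 was called higher, KLK7 losing its call, with relative log expression factors, DESeq2 or no filter, and 0 to 2 when single libraries were left out. On library totals, 1 gene was higher with lefamulin over untreated. With retapamulin over untreated, 4 genes were called lower on library totals and by limma on log2(FPKM + 1) or log2(FPKM + 0.1). There KLK7 and KLK8 joined KLK5 and KLK6. Without a filter the count was also 4, but the genes that joined were SPINK5 and KLK13 (adjusted p = 0.048).

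Directions turned in the values that follow, given for library totals, log2(FPKM + 1) and log2(FPKM + 0.1) in that order. With retapamulin over M5, KLK6 gave -0.0929, -0.0728 and -0.0894, and KLK7 gave -0.0100 on the last. With retapamulin over untreated, KLK8 gave -0.20, -0.19 and -0.20, all called lower (adjusted p = 0.012, 0.0034 and 0.0031). For M5 over untreated, SPINT2 gave -0.0856, -0.0855 and -0.0860, all called lower (adjusted p = 0.018, 0.018 and 0.019), SERPINB6 -0.115, -0.110 and -0.114, all called lower (adjusted p = 0.0055, 0.0044 and 0.0047), and SPINK1 -0.0266, -0.0011 and -0.0082. Between the drugs SPINT1 gave 0.0197, 0.0191 and 0.0193, SPINT2 gave 0.0665, 0.0658 and 0.0661, and F2RL1 gave 0.0840, 0.0824 and 0.0839, called higher on both FPKM scales (adjusted p = 0.035 and 0.038). With at least 1 CPM in 3 libraries F2RL1 gave 0.0017 and, for M5 over untreated, SERPINB6 -0.0165. On leaving out single libraries, ST14 between the drugs ranged from -0.0242, without lefamulin replicate 1, to 0.0698. For M5 over untreated SERPINB6 ranged from -0.0297 to 0.0224 and SPINK1, on 1 read a group, from -1.79 to 1.85. With lefamulin over M5 SBSN ranged from -0.451 to 0.0876, and with retapamulin over M5 SERPINB6 ranged from -0.0551 to 0.0014 and IVL from -0.807 to 0.0551. The cause was not tested, beyond the shift of all genes that library totals bring. KLK11 ratios over the 6 comparisons ranged from 0.351 to 3.93 as single libraries were left out. With the replicate block, 7780 genes rather than 7839 were called for M5 over untreated, and the counts of kallikreins called were the same in all 6 comparisons. Depth limits SPINK5, KLK11 and KLK13, with at most 17 reads a library.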
